A study of Arabidopsis thaliana with 12 samples.

Results

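The anthocyanin synthesis genes described here are DFR (AT5G42800), which encodes dihydroflavonol reductase, and the anthocyanin glycosyltransferase genes AT4G14090 and UF3GT (AT5G54060). Each was measured by the 1 probe set whose annotation names that gene and no other. They are 3 of 13355 genes named in this way, by 13513 of the 22810 probe sets on the array. The rule goes by gene name and uses no measured value.

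Anthocyanins are the red and purple pigments that leaf cells store in the vacuole, often under high light, cold, sugar excess or nutrient shortage. They are made from flavonoid precursors: early enzymes supply dihydroflavonols, which are shared with the colourless flavonols. DFR reduces them at the first step that commits carbon to anthocyanins, an oxidase then forms the pigment, and glycosyltransferases attach sugars that make it stable and soluble. In Arabidopsis, AT4G14090 (also known as UGT75C1) adds glucose and UF3GT (UGT79B1) adds xylose to a sugar that the pigment already carries. The late steps are known to be switched on together by complexes of MYB, bHLH and WD40 proteins, and some of these MYB genes are targets of small RNAs that act through ARGONAUTE1.

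RNA came from leaves of 4-week-old Arabidopsis thaliana plants of the Col-0 ecotype and was hybridised to 12 ATH1 arrays. There were 4 groups of 3 biological replicates, each a pool of 4 plants: submerged ago1-27, ago1-27 in the dark, submerged wild type (WT), and WT in the dark. The ago1-27 plants carry a hypomorphic allele of ARGONAUTE1, which lowers but does not abolish the function of the protein throughout the plant. Submergence lasted 12 h with the water 10 cm above the leaves and took place in darkness, so every plant of the study spent the treatment in the dark and no group was kept in light. The comparisons ask what the mutation changes with and without submergence, and what submergence adds to darkness in each genotype.

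Values are signals on a linear scale, and the arrays share a 2% trimmed mean of 500.0. The deposited table holds no detection calls. A signal was therefore treated as low when it did not exceed the 40th percentile of its own array, called the limit below. This limit lay between 72 and 92.3 on 11 arrays and at 120 on ago1-27_submerged replicate 3, which also had the highest median signal, 207 against 173 or less elsewhere. An earlier analysis of these data found that array and WT_dark replicate 1 apart from the rest of their groups. The leaf markers named on the array were strong in every group: the summed signal of LHCB4.2, PSAN, PSBY and RCA ran from 74160 to 93071 on submerged ago1-27 arrays, 76367 to 85155 on dark ago1-27 arrays, 44590 to 51040 on submerged WT arrays and 30647 to 39305 on dark WT arrays. AGO1 is not named by the annotation used, so the genotype labels have no check on the mutated gene. Among 25 genes that plants switch on when oxygen is short, 24 were called lower in ago1-27 in the dark and 24 under submergence. Their median log2 changes were -4.65 and -4.72, and of all 14812 probe sets tested 3082 and 2635 were called lower. Submergence was called to raise 1 and lower 0 in WT (4.71% and 2.37% of all probe sets) and to raise 0 and lower 2 in ago1-27 (4.19% each). The summed signal of the 25 genes was 144792 to 151409 on dark and 154639 to 168028 on submerged WT arrays. It was 12334.8 to 14827 on dark and 8003.53 to 12671.5 on submerged ago1-27 arrays. These genes therefore separated the genotype labels by far more than the treatment labels. Their sums did not overlap between submerged and dark WT arrays, with submerged higher, but did overlap in ago1-27. A group name below means the arrays that carry that label.

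DFR was above the limit on every ago1-27 array, AT4G14090 on most of them and UF3GT on 1, and only DFR exceeded it on any WT array. DFR read 227, 125 and 489 in submerged ago1-27 and 292, 201 and 335 in ago1-27 in the dark, against 19.2, 52.1 and 70.8 in submerged WT and 170, 76.1 and 63.4 in WT in the dark. It exceeded the limit on 6 of 6 ago1-27 arrays, on 0 of 3 arrays of submerged WT and on 2 of 3 arrays of WT in the dark. In multiples of each array's limit, DFR lay at 2.66 ± 1.36 in submerged ago1-27 and 3.06 ± 0.65 in ago1-27 in the dark, against 0.552 ± 0.304 in submerged WT and 1.3 ± 0.62 in WT in the dark (SD, n = 3 each). The ago1-27 groups had nearly equal means, WT in the dark came next, and submerged WT was lowest. Neighbours within a genotype overlapped array by array. Across treatments the genotypes overlapped too, with WT_dark replicate 1 at 170 and ago1-27_submerged replicate 2 at 125.

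AT4G14090 read 53.9, 92.3 and 211 in submerged ago1-27 and 151, 70.2 and 138 in ago1-27 in the dark, against 25.9, 11 and 64.3 in submerged WT and 52.9, 32.1 and 71.9 in WT in the dark. It exceeded the limit on 4 of 6 ago1-27 arrays, once by a margin as small as 92.3 over a limit of 91.9, and on 0 of 6 WT arrays. Relative to the limit it lay at 1.12 ± 0.59 in submerged ago1-27 and 1.32 ± 0.44 in ago1-27 in the dark, against 0.396 ± 0.323 in submerged WT and 0.674 ± 0.255 in WT in the dark (SD, n = 3 each). The order of the groups was that of DFR, with a narrower span. Arrays of different genotypes overlapped within each treatment, where those of DFR did not.

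UF3GT read 36.6, 53.9 and 190 in submerged ago1-27 and 89.5, 65.1 and 62.5 in ago1-27 in the dark, against 37.4, 16.7 and 41.1 in submerged WT and 55.7, 71.8 and 68.8 in WT in the dark. Only ago1-27_submerged replicate 3 exceeded its limit, at 1.58 times that limit, so UF3GT was above background by this measure on 1 of 12 arrays. Its level in WT in the dark, 0.855 ± 0.177 of the limit, was close to that in ago1-27 in the dark, 0.806 ± 0.153 (SD, n = 3 each). Submerged WT was lowest, at 0.372 ± 0.158. Its arrays did not overlap those of WT in the dark, as for 10.1% of all probe sets tested, but all 6 lay under the limit.

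**Figure D1:**
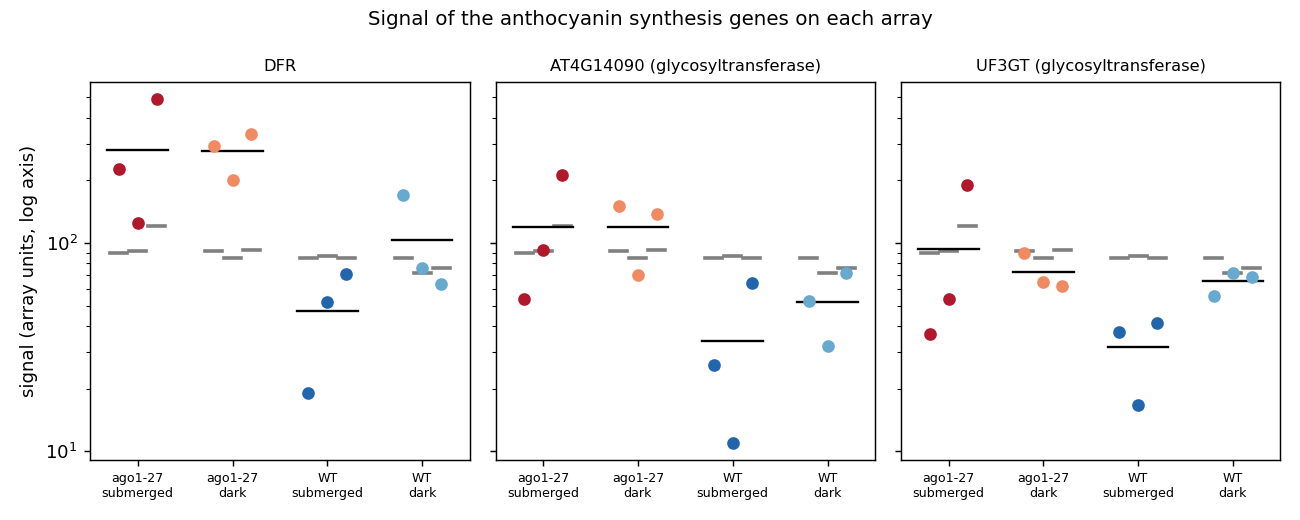
Signal (array units, log axis) of DFR, AT4G14090 and UF3GT on each of the 12 arrays, by group. Points are arrays, black bars are group means and grey ticks the 40th percentile of each array; the 6 ago1-27 points of DFR lie above their ticks, while UF3GT passes its tick on 1 array.

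ago1-27_submerged replicate 3 had the highest signal of all 12 arrays for each of the 3 members. Without it the submerged ago1-27 arrays averaged 176 for DFR, 73.1 for AT4G14090 and 45.2 for UF3GT, against 280, 119 and 93.4 with it. The same array stood out in PYK10, a beta-glucosidase gene used here as a root marker, which read 1372 there, 302 and 225 on the other submerged ago1-27 arrays and 2.2 to 214 on the remaining 9. The other named root marker, EXPA7, was under the limit on all 12 arrays. The part of root tissue or of this array's scaling in the members' levels was not tested. In a leaf RNA pool, fewer cells that express a gene and less RNA of it per cell cannot be told apart.

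A probe set entered the test when it exceeded the limit on at least 3 of 12 arrays, which 14812 did. DFR and AT4G14090 passed and UF3GT did not. Both passed through their ago1-27 arrays, AT4G14090 through those alone. A probe set that enters in this way is already high in ago1-27, so their values with no filter are given as well. Tests are limma's moderated test across all these probe sets with Benjamini-Hochberg adjustment, and errors of log2 changes are standard errors.

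Under submergence, DFR was higher in ago1-27 than in WT. It averaged 280 ± 188 in submerged ago1-27 and 47.3 ± 26.1 in submerged WT (signal, SD, n = 3 each), and the arrays of both groups did not overlap. The log2 change was 2.54 ± 0.56 (limma adjusted p = 0.0029; 95% interval 1.33 to 3.75). Since all submerged WT arrays lay under the limit, the measured fold is a bound, and DFR was at least 2.8-fold higher in submerged ago1-27. In this comparison 44.5% of all probe sets tested were called, 26.7% as higher, and 34.3% did not overlap with ago1-27 above, so neither is rare. The median log2 change of all probe sets was 0.17. With arrays centred on their medians, the change of DFR was 2.33 (adjusted p = 0.0035), and with no filter it kept its call (adjusted p = 0.0041). It was called under all 21 alternatives tried, with changes from 1.49 to 3.01, including the fit without ago1-27_submerged replicate 3 (2.03, adjusted p = 0.012).

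AT4G14090 was also called higher in ago1-27 under submergence, at 119 ± 82.1 in submerged ago1-27 and 33.7 ± 27.5 in submerged WT (SD, n = 3 each), with overlapping arrays. The log2 change was 1.95 ± 0.65 (limma adjusted p = 0.028; 95% interval 0.53 to 3.36). Set against the limits of the WT arrays, submerged ago1-27 averaged 1.19-fold higher, but this rested on ago1-27_submerged replicate 3, at 1.76 times its own limit. Replicate 1 was at 0.605 of its limit and replicate 2 at 1.004. Without replicate 3 the mean was 73.1, under the submerged WT limits of 84.5 to 87.1, so no least fold is claimed. With no filter the call was kept (adjusted p = 0.038). It was lost without ago1-27_submerged replicate 3 (adjusted p = 0.11), ago1-27_submerged replicate 2 (0.054), WT_submerged replicate 1 (0.062) or WT_submerged replicate 2 (0.12). It was lost as well when signals under the limit were set to the limit (log2 change 0.49, adjusted p = 0.2). UF3GT had a difference of mean log2 signals of 1.29 in the same comparison. With no filter its limma adjusted p was 0.1, and without ago1-27_submerged replicate 3 the difference was 0.59.

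In the dark, DFR was again higher in ago1-27, at 276 ± 68.6 in ago1-27 and 103 ± 58.2 in WT (SD, n = 3 each). The arrays did not overlap, as for 36.5% of all probe sets tested, and 52.9% were called, 32.1% as higher. The log2 change was 1.53 ± 0.56, 2.88-fold (limma adjusted p = 0.035; 95% interval 0.32 to 2.73), or 1.34 after median centring (adjusted p = 0.045). This call was less secure than the one under submergence. It was lost without ago1-27_dark replicate 1 (adjusted p = 0.088) or 3 (0.11) or WT_dark replicate 2 (0.1) or 3 (0.12), and with no filter its adjusted p was 0.05002, just over the threshold.

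AT4G14090 was not called in the dark. It averaged 120 ± 43.6 in ago1-27 and 52.3 ± 19.9 in WT (SD, n = 3 each; log2 change 1.2 ± 0.65, limma adjusted p = 0.14, or 0.185 with no filter), and the 95% interval of -0.22 to 2.61 holds changes as large as that of DFR. UF3GT averaged 72.4 ± 14.9 in ago1-27 and 65.4 ± 8.61 in WT (SD, n = 3 each), under the limit on all 6 arrays, so no fold is given.

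The ratio of 3' to 5' signals of the GAPDH control probe sets, a sign of RNA quality, moved with genotype too. It averaged 1.97 ± 0.26 on submerged ago1-27 arrays, 1.93 ± 0.27 on dark ago1-27 arrays, 1.29 ± 0.065 on submerged WT arrays and 1.42 ± 0.11 on dark WT arrays (SD, n = 3 each). The actin ratio averaged 11.4 ± 0.989 in submerged ago1-27 against 6.3 ± 0.63 in submerged WT, and 8.02 ± 0.86 in dark ago1-27 against 7.95 ± 0.477 in dark WT. Of the 4 leaf markers, 4 were called higher in ago1-27 under submergence, where 26.7% of all probe sets were, and 4 in the dark, where 32.1% were. The guard cell marker FMA read 118.6 to 169 and 83 to 131 in submerged and dark ago1-27, against 90.9 to 112 and 62.7 to 74.7 in submerged and dark WT. Between the same genotype labels, the 25 low-oxygen genes had median log2 changes of -4.72 under submergence and -4.65 in the dark. The part of all these in the differences of DFR and AT4G14090 was not tested.

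Submergence, as labelled, was not called to change any member in either genotype. Of the 25 low-oxygen genes, 24 were not called between these labels in WT and 23 in ago1-27. In ago1-27, where 8.38% of all probe sets were called (4.19% higher, 4.19% lower), DFR had a log2 change of -0.17 ± 0.56 (limma adjusted p = 0.88; 95% interval -1.38 to 1.04) and AT4G14090 of -0.16 ± 0.65 (adjusted p = 0.91; -1.57 to 1.25). Without ago1-27_submerged replicate 3 the values were -0.68 and -0.69, and still not called. UF3GT had a difference of mean log2 signals of 0.01 with that array and of -0.69 without it.

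In WT, where 7.08% of all probe sets were called (4.71% higher, 2.37% lower), the 3 members had lower means in submerged than in dark plants. DFR had a log2 change of -1.18 ± 0.56 (limma adjusted p = 0.23; 95% interval -2.39 to 0.03), AT4G14090 of -0.91 ± 0.65 (adjusted p = 0.45; -2.33 to 0.5) and UF3GT a difference of mean log2 signals of -1.14 (adjusted p = 0.32 with no filter). AT4G14090 and UF3GT lay under the limit on all 6 of these arrays, so their differences are between signals not above background. With signals under the limit set to it, DFR had a change of -0.21. DFR was at -0.63 without WT_submerged replicate 1 and -0.75 without WT_dark replicate 1. AT4G14090 was at -0.28 without WT_submerged replicate 2, and at -1.55 without WT_submerged replicate 3.

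The genotype effect did not differ detectably between treatments. The interaction, the submergence effect in ago1-27 minus that in WT, was 1.01 ± 0.79 for DFR (limma adjusted p = 0.59; 95% interval -0.7 to 2.72) and 0.75 ± 0.92 for AT4G14090 (adjusted p = 0.76; -1.25 to 2.75). In all, 0.284% of probe sets were called for the interaction. With signals under the limit set to it, the interaction of DFR was 0.046. With 1 array left out it ran from 0.46 (without WT_submerged replicate 1) to 1.48 (without ago1-27_submerged replicate 2). That of AT4G14090 ran from 0.12 (without WT_submerged replicate 2) to 1.39 (without WT_submerged replicate 3). The intervals of the full fit include both no difference and a difference larger than either submergence effect.

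Whether the late steps moved together was examined on the per-array difference of 2 members' log2 signals, which does not depend on how an array was scaled. UF3GT lay under the limit on 11 of 12 arrays, so its pairs set a member against signals mostly not above background, and cannot show how far UF3GT itself moved. The genotype effect of DFR exceeded that of UF3GT by 1.32 on the log2 scale, 1.39 in the dark and 1.25 under submergence (exact two-sided permutation test within treatments, 400 arrangements, p = 0.035, adjusted p = 0.105 over 6 tests). That of AT4G14090 exceeded that of UF3GT by 0.86 (exact p = 0.03, adjusted p = 0.105), and that of DFR exceeded that of AT4G14090 by 0.46 (exact p = 0.415, adjusted p = 0.83). None passed the adjustment, and the smallest p this design allows is 0.005. The first passed without WT_submerged replicate 2 (1.61, exact adjusted p = 0.03) and the second without WT_submerged replicate 3 (1.06, exact adjusted p = 0.03). The submergence effects of the pairs differed by -0.14 (DFR minus AT4G14090), -0.11 (DFR minus UF3GT) and 0.03 (AT4G14090 minus UF3GT), with exact p of 0.81, 0.825 and 0.895. With signals under the limit set to it, the genotype effect of DFR exceeded those of AT4G14090 and UF3GT by 0.89 and 1.14 (exact adjusted p = 0.03 for both), and that of AT4G14090 exceeded that of UF3GT by 0.24 (exact adjusted p = 0.16). The floor replaces most signals of AT4G14090 and UF3GT, those of all WT arrays included, with array limits. It flattens their genotype effects by construction, and the differences then depend on array scaling. They cannot show that DFR moved apart from the other members.

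**Figure D2:**
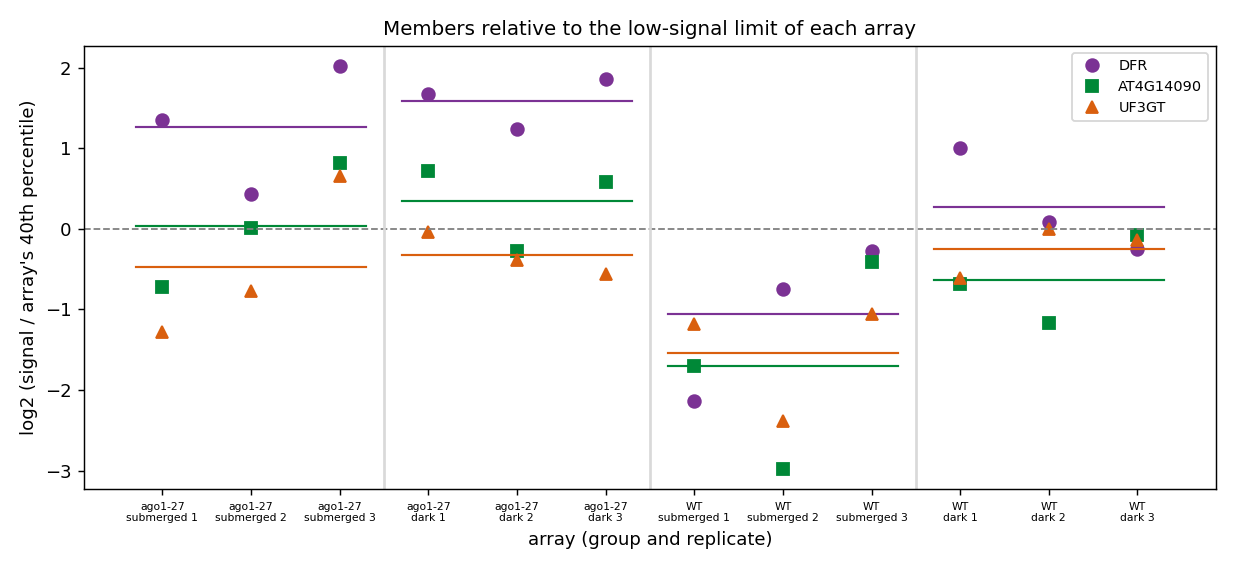
Log2 of each member's signal over the 40th percentile of its array, for the 12 arrays in 4 groups of 3 replicates, with a line at each group mean. DFR is above the dashed line of 0 on all ago1-27 arrays and UF3GT on 1 of them, and all 3 members are highest on ago1-27_submerged replicate 3.

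Array by array within a genotype, the members tended to be high or low on the same arrays, though no relation passed adjustment over 6 relations. Unlike the differences above, these log2 signals share the scaling of each array. Of the 6 ago1-27 arrays, UF3GT exceeded the limit on 1 and AT4G14090 on 4. Over the 6 ago1-27 arrays, AT4G14090 and UF3GT had the highest correlation (Pearson r = 0.87, exact permutation p = 0.017, adjusted p = 0.1; Spearman rho = 0.83, exact p = 0.058, adjusted p = 0.29). Without the arrays farthest from the median of AT4G14090, ago1-27_submerged replicates 1 and 3, r was 0.55 over 4 arrays. DFR had r of 0.7 with AT4G14090 and 0.71 with UF3GT (rho 0.71 and 0.6; exact permutation p for r 0.125 and 0.113, and for rho 0.136 and 0.242), or 0.47 and 0.34 without ago1-27_submerged replicate 3. Without the arrays farthest from the median of DFR, ago1-27_submerged replicates 2 and 3, they were 0.86 and 0.4. Over the 6 WT arrays, where most signals lay under the limit, r was 0.79 for AT4G14090 with UF3GT (rho 0.6; exact permutation p = 0.0528 and 0.242), 0.42 for DFR with AT4G14090 (rho 0.43; p = 0.378 and 0.419) and 0.37 for DFR with UF3GT (rho 0.66; p = 0.443 and 0.175). The first of these rested on the 2 WT arrays farthest from the median, and was -0.04 without them. The others were 0.65 and 0.82 without the arrays farthest from the median of DFR, WT_dark replicate 1 and WT_submerged replicate 1. Each set of 6 arrays holds 3 submerged and 3 dark arrays, too few to repeat the relations within a treatment.

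The genes whose log2 signals ran most like a member over all 12 arrays were ranked by Pearson r among the single-gene probe sets tested, as a description only, since these arrays share their genotype groups and scaling. For DFR they were AT1G23000 (0.95), AT5G62550 (0.95), AT3G49810 (0.95), AT5G48310 (0.95) and AT3G53190 (0.94). For AT4G14090 they were AT1G72420 (0.93), AT5G53030 (0.92), AT1G63100 (0.9), AT4G20320 (0.89) and AT5G43020 (0.89). For UF3GT they were AT3G59470 (0.89), AT4G15020 (0.88), AT3G12170 (0.87), AT1G05710 (0.86) and AT3G54250 (0.85). No flavonoid gene is among these 15, but few could appear. Of 53 listed flavonoid and anthocyanin genes, 10 are named on single-gene probe sets, and 4 passed the filter beside DFR and AT4G14090. Measured the same way, AT4G14090 had an r of 0.78 with DFR, and 366 of 8028 other probe sets ran closer to DFR and 126 closer to AT4G14090. UF3GT had an r of 0.83 with AT4G14090, and 41 probe sets ran closer to AT4G14090 and 11 closer to UF3GT. UF3GT and DFR had an r of 0.62, with 1677 closer to DFR and 227 closer to UF3GT.

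The rest of the pathway could be followed in part. Of 53 flavonoid and anthocyanin genes listed from general knowledge, 10 are named on a single-gene probe set, the members included, and 4 of the other 7 passed the filter. No single-gene probe set stands for the genes of the phenylpropanoid entry, the MYB and bHLH regulators, the repressors or the vacuolar transporters in that list, under this annotation. UGT78D3 of the flavonol branch, AT5MAT, which adds malonate to anthocyanin sugars, and BAN, an enzyme of seed coat tannins, lay under the limit on all 12 arrays.

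All 4 of the measured others were called higher in ago1-27 in the dark, where 32.1% of all probe sets were, and 3 under submergence, where 26.7% were. Their median log2 change was 1.65 in the dark and 1.39 under submergence. All probe sets had a median of 0.17 in both, and higher signals in ago1-27 were not confined to the anthocyanin steps. The 4 include AT1G06000, which passed the filter through its ago1-27 arrays alone, so these counts and medians hold a gene already high there. CHIL, a helper protein of the early pathway related to chalcone isomerase, read 355 to 435 in submerged ago1-27 and 146 to 270 in ago1-27 in the dark, against 98.7 to 209 in submerged WT and 51.5 to 117 in WT in the dark. Its genotype effect was 1.33 ± 0.35 under submergence (limma adjusted p = 0.0087) and 1.52 ± 0.35 in the dark (adjusted p = 0.003).

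The flavonol glycosyltransferase UGT78D1, which adds rhamnose, read 521 to 564 in submerged ago1-27 and 587 to 789 in ago1-27 in the dark, against 89.2 to 406 in submerged WT and 138 to 178 in WT in the dark. It was higher in ago1-27 by 1.44 ± 0.39 under submergence (limma adjusted p = 0.0093) and by 2.07 ± 0.39 in the dark (adjusted p = 0.00071). AT1G06000, which also adds rhamnose to flavonols, was under the limit on all 6 WT arrays and above it on all 6 ago1-27 arrays. Set against the limits of the WT arrays, it averaged 3.31-fold higher in ago1-27 under submergence and 1.67-fold higher in the dark. These folds are point estimates that leave out the spread between arrays. The log2 changes had 95% intervals of 0.95 to 2.88 under submergence (limma adjusted p = 0.004) and 0.82 to 2.75 in the dark (limma adjusted p = 0.0046). AT1G06000 passed the filter through its ago1-27 arrays alone. With no filter the limma adjusted p was 0.0061 under submergence and 0.0072 in the dark. CHIL, UGT78D1 and AT1G06000 kept these calls when any of the 12 arrays was left out, though UGT78D1 under submergence was 0.87 without WT_submerged replicate 2 (adjusted p = 0.018).

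**Figure D3:**
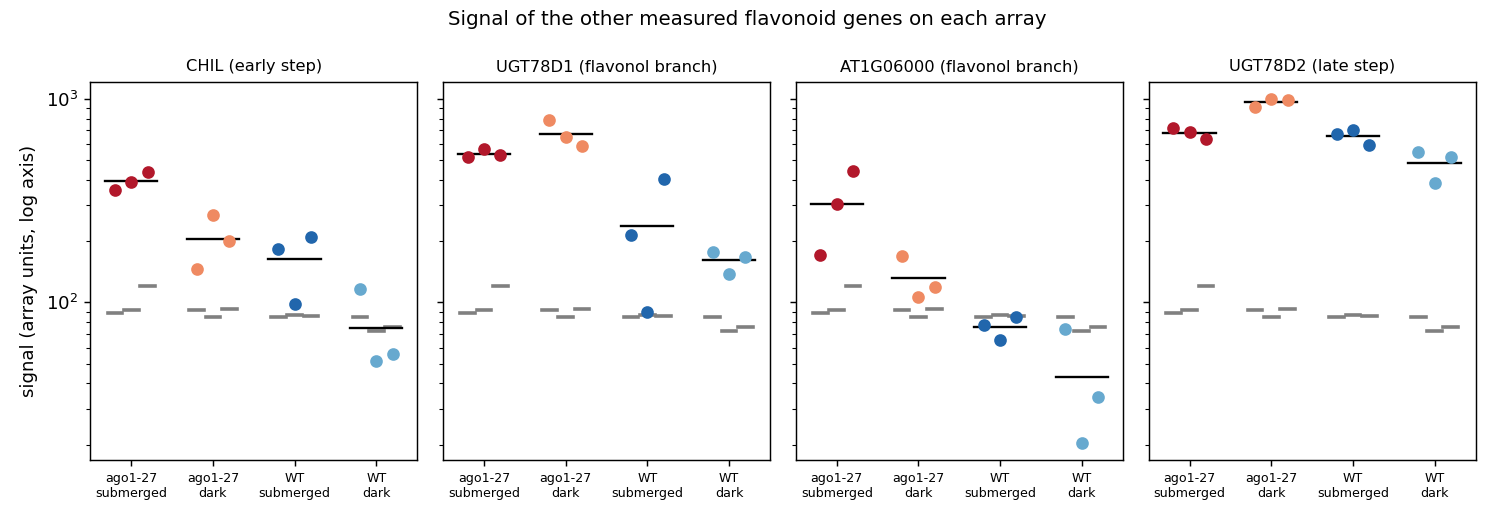
Signal (array units, log axis) of CHIL, UGT78D1, AT1G06000 and UGT78D2 on each array, by group, with black bars at group means and grey ticks at the 40th percentile of each array. AT1G06000 is above its ticks on the 6 ago1-27 arrays and under them on the 6 WT arrays, while UGT78D2 is well above on all 12.

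UGT78D2, which adds glucose to both flavonols and anthocyanidins, was well above the limit in every group, with an order of groups unlike that of DFR. It averaged 678 ± 42.1 on submerged ago1-27 arrays, 964 ± 42.7 on dark ago1-27 arrays, 655 ± 58.4 on submerged WT arrays and 484 ± 85.5 on dark WT arrays (SD, n = 3 each). In the dark it was 2.01-fold higher in ago1-27 (log2 change 1.01 ± 0.15, limma adjusted p = 0.0001), and under submergence it was not called (0.05 ± 0.15, adjusted p = 0.79; 95% interval -0.26 to 0.37). With submergence it was called lower in ago1-27 (-0.51 ± 0.15, adjusted p = 0.049), a call that was lost with no filter (adjusted p = 0.061), without both arrays that lay apart (0.06), with the replicate block (0.066) and without any array but WT_dark replicates 1 and 2 (highest adjusted p = 0.16).

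With submergence, CHIL and AT1G06000 had positive log2 changes where DFR, AT4G14090 and UF3GT had negative or near-zero ones, but none of these passed the test. CHIL had 0.98 ± 0.35 in ago1-27 (limma adjusted p = 0.1) and 1.17 ± 0.35 in WT (adjusted p = 0.067). AT1G06000 had 1.14 ± 0.44 in ago1-27 (limma adjusted p = 0.13). In both WT groups AT1G06000, AT4G14090 and UF3GT lay under the limit, so their signs in WT are between signals not above background. Without WT_dark replicate 1 CHIL was called in ago1-27 (0.98, limma adjusted p = 0.043) and in WT (1.54, adjusted p = 0.0072), while the WT change of DFR was -0.75 (adjusted p = 0.4). AT1G06000 was then called in WT as well (1.5, limma adjusted p = 0.021), though between signals under the limit. The difference between CHIL and DFR was not tested.

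**Figure D4:**
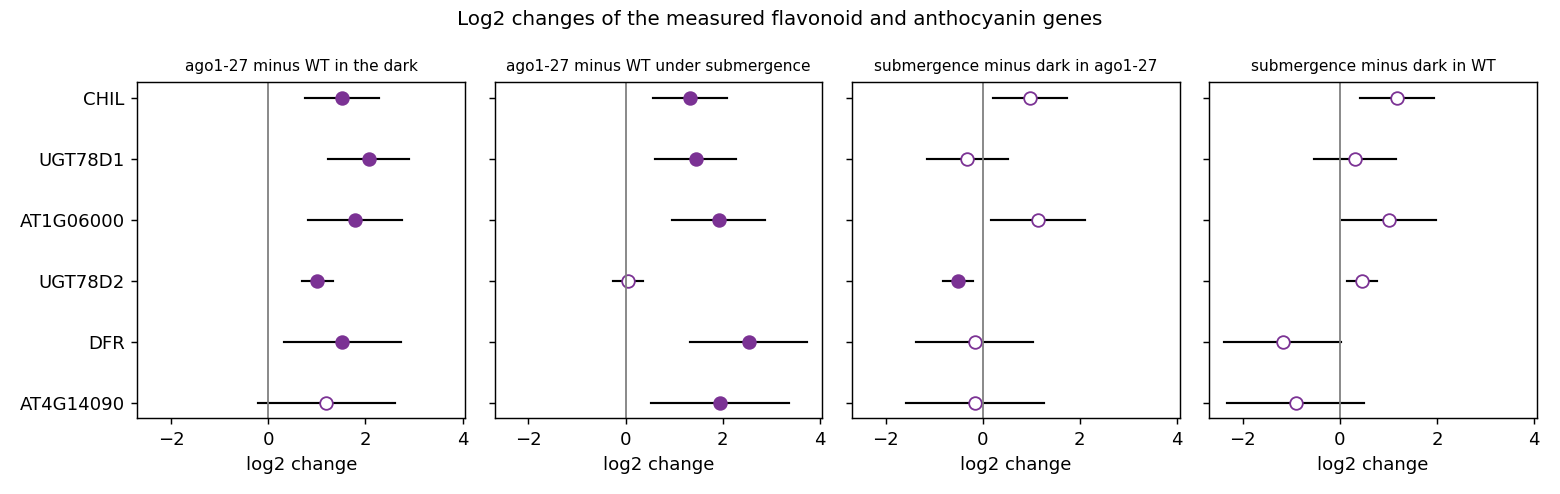
Log2 changes (x axis) with 95% intervals of limma for the 6 measured genes, in the 4 comparisons between groups. Filled circles passed an adjusted p of 0.05. Of the genotype comparisons, DFR is filled in both and UGT78D2 in the dark only. Values of AT4G14090 and AT1G06000 in WT, and of DFR in submerged WT, lie under the low-signal limit.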

How the data were processed

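The authors deposited linear signal intensity values, 1 for each probe set of each array. MAS5 made them, per the submitters' processing notes; its version is not given in the sources used here. No detection calls or raw probe values were analysed here. All 12 columns were mapped to samples by accession. Probe sets were named with the platform annotation supplied for this work, which names 1 gene for 13513 probe sets, several for 503 and none for 8794, 13436 of the first matching a RefSeq locus.

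After removal of 64 control probe sets, the 14812 probe sets that exceeded the limit (the 40th percentile of an array) on 3 or more arrays entered the test. Signals were taken as log2 and fitted as 4 group means with limma 3.58.1 in R 4.3.3, with the prior variance following mean signal (prior degrees of freedom 4.61, residual 8). The threshold was a Benjamini-Hochberg adjusted p of 0.05. A fold is a bound where every array of a group was under the limit: the brighter group's mean log2 signal against the dimmer group's, with each dim array at the higher of its own signal and its limit. Such a bound is a point estimate and leaves out the spread between arrays. Exact permutation tests were computed in Python 3.11.15 over all arrangements, with ranks and the Benjamini-Hochberg adjustment from scipy 1.17.1. The number of arrays limits the precision. The fits were tested on simulated data.

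Named genes were the members, every listed pathway gene named on a single-gene probe set, and the 5 genes most correlated with each member; of several probe sets of a gene, the brightest on average was used. Beside the 12 fits that each left out an array, the alternatives were no filter, a filter at the 60th percentile, median centring, quantile normalization, signals floored at the limit, array weights, the 6 arrays compared alone, leaving out both arrays that lay apart, and the replicate number as a block. All but the filter alternatives kept the same 14812 probe sets. The members and lists were chosen with earlier results of these data known.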

Additional observations from a re-analysis of the deposited data

Results flagged for a closer look

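UGT78D2 had submergence effects of opposite sign in ago1-27 and WT. All 3 submerged ago1-27 arrays lay under the 3 ago1-27 arrays in the dark, while all 3 submerged WT arrays lay above the 3 WT arrays in the dark. Of all probe sets tested, 15.3% were separated in the first way and 15.5% in the second. The submergence effect in ago1-27 minus that in WT was -0.96 ± 0.21 on the log2 scale, which did not pass the test over all probe sets (limma adjusted p = 0.069; 0.21 or less with 1 array left out, and called without WT_dark replicate 1 at -1.06, adjusted p = 0.016). The interaction was called with array weights (adjusted p = 0.0062) and without both arrays that lay apart (adjusted p = 0.013). The ratio of 3' to 5' actin signals moved with submergence in opposite directions as well, at 11.4 ± 0.989 on submerged and 8.02 ± 0.86 on dark ago1-27 arrays, against 6.3 ± 0.63 on submerged and 7.95 ± 0.477 on dark WT arrays (SD, n = 3 each), and its part in the result was not tested.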

How the results depend on the processing

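DFR kept its call under submergence in all 21 alternatives and its direction in the dark in 21, with the call in the dark lost at no filter (1.53, adjusted p = 0.05002) and without any of 4 arrays. AT4G14090 kept its call under submergence in 13 of 20. It was lost with signals floored at the limit (0.49), in the 6 arrays alone (1.95, adjusted p = 0.063), without both arrays that lay apart (1.42) and without any of 4 arrays, while in the dark it was called in the 6 arrays alone (1.2, adjusted p = 0.045). The cause of these losses was not tested. With the floor, AT4G14090 and UF3GT were each at 0.15 for submergence in WT, which is only the difference of the array limits since all 6 signals lay under them, and the AT4G14090 interaction of -0.16 holds that difference too. The floor put the CHIL interaction at 0.12 and the DFR interaction at 0.046. The genotype effect of DFR over AT4G14090 was 0.89 with it (0.46 without) and over UF3GT 1.14 (1.32 without), both called, that of AT4G14090 over UF3GT was 0.24 (0.86 without), and the floor turned the submergence effect of AT4G14090 minus UF3GT to -0.19. Most AT4G14090 and UF3GT signals in these pairs are then array limits, so the calls cannot show that the members moved apart. Without both arrays that lay apart, the submergence effect of DFR minus AT4G14090 was 0.062, that of DFR minus UF3GT 0.25, and the AT1G06000 interaction -0.69, or -0.21 with array weights. Median centring turned UGT78D2 under submergence to -0.16.

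Probe sets called numbered 1241 for submergence in ago1-27 and 2701 with array weights. In WT there were 1048, against 4419 with array weights, 431 in the 6 arrays alone and 3872 without both arrays that lay apart. The interaction had 42 calls, against 78 at the 60th percentile, 14 after centring, 107 with the floor, 1798 with array weights and 1200 without both arrays that lay apart. Centring moved the share of calls that were higher to 47.4% (60.7% before) for ago1-27 over WT in the dark, 41.8% (60%) under submergence, 28.6% (50%) for submergence in ago1-27 and 46.9% (66.5%) in WT.

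With any 1 array left out, the log2 change of DFR ran from 1.25 to 1.96 in the dark and from -0.68 to 0.30 for submergence in ago1-27. AT4G14090 ran from 1.32 to 2.59 under submergence and from -0.69 to 0.30 for submergence in ago1-27. For submergence in WT, DFR ran from -1.57 to -0.63 and AT4G14090 from -1.55 to -0.28, and for the interaction from 0.46 to 1.48 and from 0.12 to 1.39. UGT78D1 under submergence ran from 0.87 to 1.96. UGT78D2 under submergence ran from -0.021 to 0.11, UGT78D1 for submergence in WT from -0.21 to 0.88, and the interactions of CHIL and AT1G06000 from -0.56 to 0.031 and from -0.37 to 0.56. The genotype effect of DFR minus UF3GT ran from 0.96 to 1.61 and that of AT4G14090 minus UF3GT from 0.67 to 1.06. The submergence effects ran from -0.54 to 0.13 (DFR minus AT4G14090), -0.40 to 0.25 (DFR minus UF3GT) and -0.17 to 0.15 (AT4G14090 minus UF3GT). Counts of calls ran from 346 to 1862 for submergence in ago1-27, lowest without ago1-27_dark replicate 2, from 322 to 2506 for submergence in WT and from 5 to 726 for the interaction, the last 2 lowest without WT_submerged replicate 1. All 3 were highest without WT_dark replicate 1.

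Whether the replicate numbers pair the arrays is not settled by these data. In their deviations from group means, 8 of 18 same-numbered pairs correlated above 0.1 (-0.28 to 0.35), and 7 of 12 arrays correlated best with their own number. With the replicate block, DFR had an adjusted p of 0.036 in the dark and 0.0035 under submergence and AT4G14090 of 0.0073 under submergence, with 7793, 6589, 1179, 1101 and 50 probe sets called in the 5 comparisons. The block ended the call of UGT78D2 for submergence in ago1-27 (adjusted p = 0.066). The correlations after median centring (0.41 to 0.83) and without ago1-27_submerged replicate 3 were chosen after seeing the data. AT4G14090 was not tested at the 60th percentile. No member but DFR exceeded the limit on all arrays of a group, so differences under it are limited by signal over background.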
